A study of Mus musculus with 18 samples.

Results

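The IL-12 family is a set of 2-part cytokines, and 4 of the genes that encode their subunits, Il12a, Il23a, Ebi3 and Il27, are described here by the openness of the chromatin around them. Members were the peaks of the union set that overlapped the body of one of the 4 genes extended by 25 kb on both sides (GENCODE M1 annotation, mouse genome build mm9). The rule used positions only. It took 63 of the 194284 peaks: 17 at Il12a, 13 at Il23a, 16 at Ebi3 and 17 at Il27, and all 63 passed the filter on low counts. Il12b, which encodes the subunit p40, was left out.

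ATAC-seq, in which a transposase cuts and tags DNA that is not packed away, and reads counted over a peak give its accessibility, was performed on bone marrow-derived macrophages (BMDMs) of 3 Il10-/- mice on the C57BL/6J background. The study's methods give the mice as male and 12 weeks old. Each of 6 conditions had 3 libraries. The study calls its samples matched between RNA-seq and ATAC-seq, but no source used here says that a shared replicate number marks the same mouse. Cells were untreated, or received 500 nM (+)-JQ1 or 10 ng/mL IL-10 for 12 hours, and then received PBS or 50 ng/mL LPS for 4 hours, so that all cells had been in culture for 16 hours after re-plating. The labels call cells without (+)-JQ1 or IL-10 untreated, while the study's methods name a vehicle control, so an effect of vehicle and an effect of a treatment cannot be told apart here. This gave unstimulated cells, cells with only (+)-JQ1 or only IL-10, and LPS-stimulated cells with neither (LPS) or with either before it (LPS + IL-10, LPS + (+)-JQ1). (+)-JQ1 is a small molecule that blocks the bromodomains of BET proteins, while LPS, from the outer membrane of bacteria, is sensed by macrophages through TLR4. All cells, the controls included, lacked the Il10 gene, and no wild-type ATAC-seq library was used here. BMDMs were differentiated in medium conditioned by L929 cells, so they stand for macrophages grown in culture, not for tissue macrophages.

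Il12a encodes p35, which pairs with p40 to form IL-12, a cytokine that drives T helper 1 responses. Il23a encodes p19, which pairs with the same p40 to form IL-23, a cytokine that sustains T helper 17 cells. Il27 encodes p28, which pairs with the EBI3 protein to form IL-27, and EBI3 can also pair with p35 to form IL-35. In macrophages, transcription of these genes is known to follow Toll-like receptor signals through factors of the NF-kappaB, AP-1 and IRF families, and IL-10 is known to restrain IL-12 family cytokines.

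The 300 bases before the annotated start site of each gene are shown first because each lies in, or next to, the promoter peak on which the comparisons below turn. They were read from the mm9 genome on the strand of the gene, 5′ to 3′, and none of the 4 stretches is annotated as transcribed. Capitals mark matches to 1 of 6 motifs searched on both strands: TGACTCA for AP-1, GGANTTTCC for kappaB, GAAANNGAA for the interferon response element, GAGGAAGT for PU.1, TTGCNNAA for C/EBP and TTCCNGGAA for STAT.
Il12a, chr3:68494266-68494565: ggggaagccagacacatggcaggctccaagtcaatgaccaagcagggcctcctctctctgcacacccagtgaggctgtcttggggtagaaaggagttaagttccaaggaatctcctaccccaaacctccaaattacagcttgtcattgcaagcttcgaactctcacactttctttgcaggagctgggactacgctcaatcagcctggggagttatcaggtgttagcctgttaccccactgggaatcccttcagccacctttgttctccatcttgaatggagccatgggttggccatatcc
Il23a, chr10:127735141-127735440: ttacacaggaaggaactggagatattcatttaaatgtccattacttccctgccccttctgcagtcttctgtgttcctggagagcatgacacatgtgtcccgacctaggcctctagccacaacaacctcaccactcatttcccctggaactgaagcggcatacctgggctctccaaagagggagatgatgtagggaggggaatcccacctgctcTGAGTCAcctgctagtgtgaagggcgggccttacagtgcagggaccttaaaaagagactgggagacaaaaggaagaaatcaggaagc
Ebi3, chr17:56091746-56092045: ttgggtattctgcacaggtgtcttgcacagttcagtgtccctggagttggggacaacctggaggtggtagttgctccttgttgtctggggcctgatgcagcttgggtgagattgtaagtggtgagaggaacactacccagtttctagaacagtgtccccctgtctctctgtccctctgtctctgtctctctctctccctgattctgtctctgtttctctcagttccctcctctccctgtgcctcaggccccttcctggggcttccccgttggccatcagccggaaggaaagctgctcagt
Il27, chr7:133738456-133738755: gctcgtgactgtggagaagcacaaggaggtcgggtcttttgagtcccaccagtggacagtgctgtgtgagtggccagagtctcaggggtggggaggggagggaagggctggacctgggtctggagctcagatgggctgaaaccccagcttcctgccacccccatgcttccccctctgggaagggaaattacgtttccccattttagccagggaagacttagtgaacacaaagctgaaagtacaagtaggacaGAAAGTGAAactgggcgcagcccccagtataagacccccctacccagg
The stretch before Il23a held 1 AP-1 match, 87 bases before the start site, on the strand opposite to the gene. The stretch before Il27 held 1 match to the interferon response element, 48 bases before the start site. The stretches before Il12a and Ebi3 held none of the 6 motifs in these exact letters. Sites that depart from the letters were not searched, so the lack of a match does not show that a site is absent. Of 22380 promoters of the same length, 4.50% held the AP-1 letters and 9.09% the interferon response letters. Each match describes the sequence only, and whether a factor binds there was not tested.

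Libraries held from 12020526 to 25908198 counts in peaks. TMM factors, which edgeR uses to scale libraries, were 1.24, 1.15 and 1.04 for unstimulated replicates 1 to 3 and 0.896 to 1.05 for the other 15. When libraries were scaled by total counts instead, the median change over all peaks between LPS and unstimulated cells moved, on the log2 scale, from -0.03 to -0.26. Promoter peaks were found for 7 of 7 macrophage markers, with median accessibility in CPM (counts scaled to library size) from 6.78 at Cd68 to 35.8 at Mertk. No promoter peak was found for the T cell markers Cd3e and Cd3g, the NK cell marker Ncr1, the neutrophil marker Ly6g or the fibroblast marker Col1a2. The B cell marker Cd79a was at 0.951 CPM, while Flt3 (10.7 CPM), Zbtb46 (31.1 CPM), Elane (26.6 CPM) and Col1a1 (14.7 CPM), markers of dendritic cells, neutrophil precursors and fibroblasts, had open promoters. In these bulk libraries, a peak open in fewer cells and a peak less open in each cell cannot be told apart.

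LPS opened chromatin at all 4 loci, most of all at Il27. With LPS against unstimulated cells, 33 of the 63 peaks rose and 0 fell, where a differentially accessible region (DAR) was called at an FDR below 0.05 with a |log2 fold change| above 0.5. Over all 194230 tested peaks, 11.7% rose and 10.2% fell. The 63 peaks had a median log2 fold change of 0.66, against -0.03 over all peaks. By locus, 15 of 17 peaks rose at Il27, 9 of 13 at Il23a, 5 of 16 at Ebi3 and 4 of 17 at Il12a. The median log2 fold changes were 1.40, 1.06, 0.36 and 0.37 in that order. Peaks also differed in width, with medians of 2166, 1508, 1545.5 and 724 bases in the same order. Narrow peaks with low counts are called less readily, so these counts alone do not rank the loci. Of the 30 peaks that were not called, log2 fold changes were between -0.37 and 0.68.

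The promoter peak of Il27 (peak 11 of 17 by position, chr7:133738080-133740457) had the largest rise of the 63. It spans the start site and overlaps exon sequence of Il27. Its accessibility was 6.16, 7.53 and 8.27 CPM in the 3 unstimulated libraries and 44.1, 37.8 and 38.9 CPM in the 3 LPS libraries, in order of replicate number. The groups did not overlap, and every LPS library was above every library of the other 5 conditions. The log2 fold change was 2.45 ± 0.15, adjusted p = 5.7e-27 (SE; edgeR quasi-likelihood test, Benjamini-Hochberg adjusted over all tested peaks, as for every adjusted p below).
Around it, peaks rose on both sides. Peak 8 (chr7:133731003-133733169), which covers the 3′ end of Il27 and exons of its neighbour Apobr, had 2.81, 3.68 and 4.16 CPM without stimulation and 16.7, 15.5 and 19.1 CPM with LPS (log2 fold change 2.25 ± 0.18, adjusted p = 4.8e-20). Peak 7 (chr7:133729173-133730946) over Apobr and Cln3 went from 6.76, 6.92 and 5.97 to 28.9, 25.8 and 26.6 CPM (log2 fold change 2.05 ± 0.15, adjusted p = 1e-22). Upstream of the gene, peak 13 (chr7:133741636-133743452), intergenic with its centre 4089 bases before the start site, went from 3.15, 5.38 and 6.19 to 19.98, 20.4 and 19.8 CPM (log2 fold change 2.01 ± 0.17, adjusted p = 2.1e-18). In none of these 3 peaks did the groups overlap. The Il27 window also holds the genes Eif3c, Cln3 and Apobr, and its outermost peak 17 reaches Nupr1, so a change there need not belong to Il27.

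At Il23a, the largest rise was in peak 5 (chr10:127727960-127733763), classed as distal, which starts within the gene and runs past its 3′ end to the 3′ end of Stat2. Its values were 7.56, 7.36 and 7.23 CPM without stimulation and 30.2, 33.2 and 30.2 CPM with LPS (log2 fold change 2.08 ± 0.14, adjusted p = 1.1e-23), with no overlap. The middle 300 bases of the peak, chr10:127730712-127731011 on the plus strand, lie between both genes and held none of the 6 motifs.
Il23a peak 5: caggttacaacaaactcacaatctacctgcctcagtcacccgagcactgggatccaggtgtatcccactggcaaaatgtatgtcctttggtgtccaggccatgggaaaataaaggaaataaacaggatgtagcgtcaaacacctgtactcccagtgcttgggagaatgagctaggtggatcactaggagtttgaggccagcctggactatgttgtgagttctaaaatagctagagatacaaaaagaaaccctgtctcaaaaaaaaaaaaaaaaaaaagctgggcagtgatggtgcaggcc
The gene's small peak 6 (chr10:127733845-127734761, over exons of Il23a) rose by as much, from 1.54, 2.64 and 0.767 to 7.67, 5.89 and 7.41 CPM (log2 fold change 2.08 ± 0.24, adjusted p = 2.7e-12). The promoter peak of Il23a (peak 7, chr10:127734906-127735906) rose less, from 9.704, 13.1 and 16.99 CPM to 30.2, 24.5 and 26.7 CPM (log2 fold change 1.03 ± 0.14, adjusted p = 6.4e-09). The unstimulated libraries of this peak were spread over a range of 9.704 to 16.99 CPM, which still lay below all LPS libraries. Peaks 2, 3 and 4, over exons of Stat2, rose by 1.72, 1.41 and 1.22 on the log2 scale, and the promoter peaks of Stat2 (peak 1, log2 fold change 1.06 ± 0.14, adjusted p = 2.9e-10) and Pan2 (peak 9, log2 fold change 0.66 ± 0.14, adjusted p = 8.4e-05) rose as well. The rise at the Pan2 promoter was no longer called with total counts (0.44, adjusted p = 0.00025), with loess offsets (0.19, adjusted p = 0.047) or without replicate 1 (0.50, adjusted p = 0.015), since it then stayed under the fold limit.

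At Il12a, the only gene of the 4 with no other protein-coding gene in its window, 4 of 17 peaks rose. The promoter peak (peak 6, chr3:68493763-68498154), which takes in both annotated start sites, had 11.3, 10.4 and 10.8 CPM without stimulation and 31.1, 28.6 and 26.3 CPM with LPS, a log2 fold change of 1.40 ± 0.15, adjusted p = 1.6e-13. Peak 13 (chr3:68512002-68514912), intergenic with its centre 18111 bases after the start site, was the most accessible peak of the locus at a mean of 20.4 CPM. It went from 14.2, 13.96 and 13.5 to 34.04, 31.5 and 28.2 CPM, a log2 fold change of 1.17 ± 0.14, adjusted p = 1.3e-11. Both peaks had groups that did not overlap. Peak 13 is shown because its middle 300 bases (chr3:68513308-68513607, plus strand) held an AP-1 match and a C/EBP match, in capitals.
Il12a peak 13: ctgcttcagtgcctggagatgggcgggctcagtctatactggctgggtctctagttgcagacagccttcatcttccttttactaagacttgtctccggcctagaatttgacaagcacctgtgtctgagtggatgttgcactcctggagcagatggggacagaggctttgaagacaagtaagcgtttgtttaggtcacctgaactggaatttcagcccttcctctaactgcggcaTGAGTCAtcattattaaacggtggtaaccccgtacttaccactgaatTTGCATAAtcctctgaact
Peak 15, 22367 bases after the start site, had 3.41, 4.34 and 4.88 CPM without and 7.76, 5.44 and 6.63 CPM with LPS (log2 fold change 0.64 ± 0.19, adjusted p = 0.0056). That call was lost without replicate 1 (0.39, adjusted p = 0.22) and with total counts (0.42, adjusted p = 0.075).

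At Ebi3, 5 of 16 peaks rose. The promoter peak (peak 7, chr17:56088945-56092488) had 11.5, 9.23 and 14.7 CPM without stimulation and 28.2, 22.7 and 21.7 CPM with LPS (log2 fold change 1.04 ± 0.15, adjusted p = 9.8e-09), and the groups did not overlap. Peak 12 (chr17:56099501-56102258), over exons of the next gene, Ccdc94, went from 5.76, 6.81 and 5.15 to 13.05, 11.04 and 12.8 CPM (log2 fold change 1.05 ± 0.17, adjusted p = 2.2e-07). Peak 11, the Ccdc94 promoter, had a log2 fold change of 0.59 ± 0.14, adjusted p = 0.00059, a call that was lost with total counts, with loess offsets, without replicate 1 (0.42, adjusted p = 0.045) and without replicate 2 (0.55, adjusted p = 0.061). The rises of the promoter peaks of Il12a, Il23a, Ebi3 and Il27 kept their calls under all 14 alternative settings, with log2 fold changes of 1.14 to 1.49, 0.72 to 1.26, 0.75 to 1.30 and 2.18 to 2.57.

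**Figure D1:**
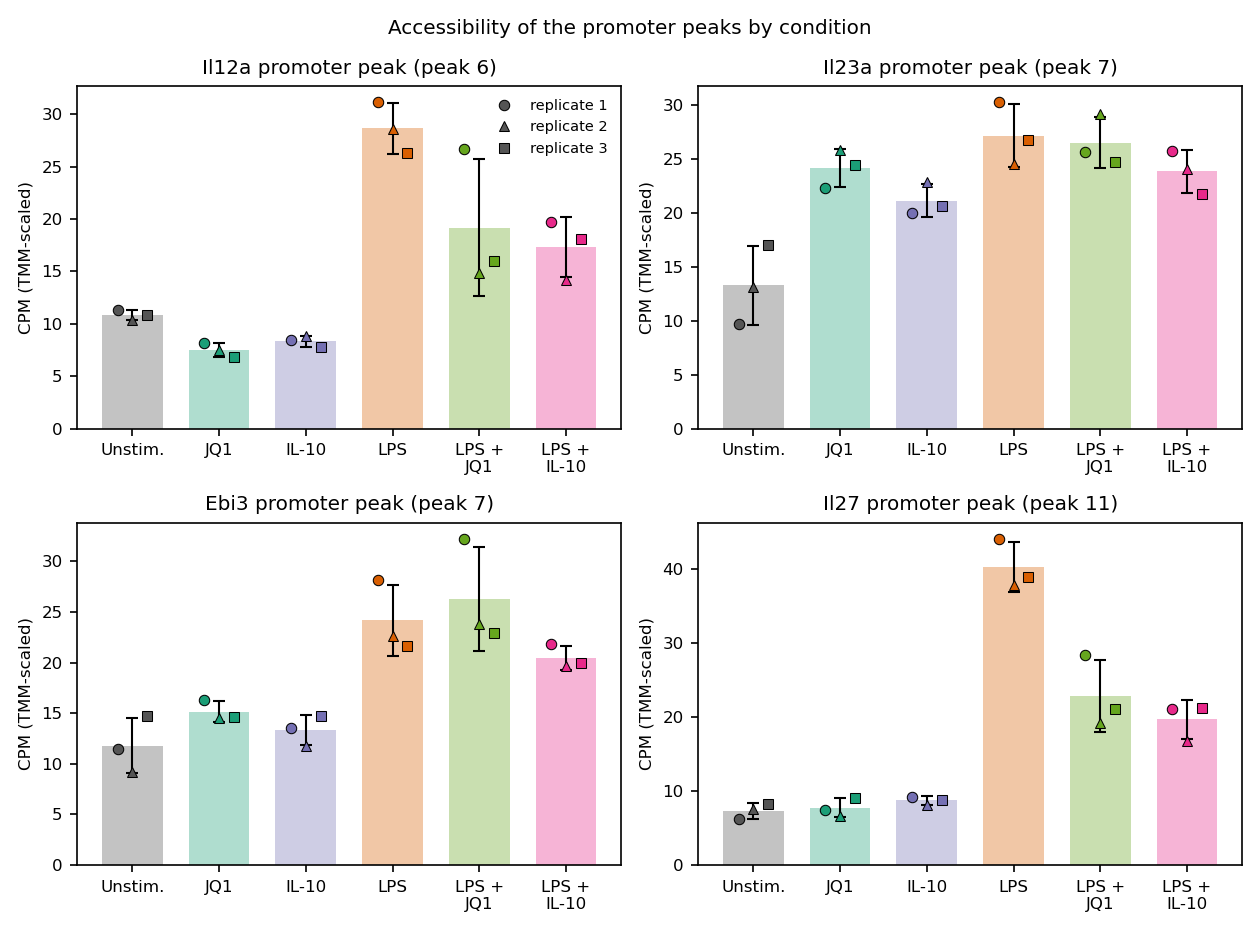
Accessibility of the promoter peaks of Il12a, Il23a, Ebi3 and Il27 in TMM-scaled CPM (y axis, from 0) in 6 conditions (x axis), with points for the 3 libraries, bars for the mean and whiskers for the SD. At Il27 the LPS libraries sit in the range of 37.8 to 44.1 CPM, above all others, and at Il23a only the unstimulated libraries, at 9.704 to 16.99 CPM, stand apart from the other 5 conditions.

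With (+)-JQ1 before LPS, accessibility fell at Il27, Il23a and Il12a and in no peak at Ebi3. LPS + (+)-JQ1 against LPS gave 0 peaks that rose and 18 of 63 that fell, where 1.74% of all tested peaks rose and 3.49% fell. The median log2 fold change of the 63 was -0.25, against -0.00 over all peaks. Falls were found in 9 of 17 peaks at Il27, 6 of 13 at Il23a, 3 of 17 at Il12a and 0 of 16 at Ebi3. This comparison and that of LPS with unstimulated cells share the LPS libraries.

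The largest fall at Il27 among peaks with at least 50 mean normalised counts was in peak 8, at the 3′ end of the gene. It had 6.68, 4.48 and 3.76 CPM with LPS + (+)-JQ1, below all LPS libraries, and 1 of the 3 lay within the range of 2.81 to 4.16 CPM of unstimulated cells (log2 fold change -1.82 ± 0.17, adjusted p = 9.6e-15). Peak 3 (chr7:133710470-133717149) over exons of Cln3 and the Eif3c promoter fell from 30.8, 27.3 and 29.9 to 12.05, 9.93 and 8.53 CPM (log2 fold change -1.55 ± 0.14, adjusted p = 3.2e-15), and peak 7 to 11.2, 11.6 and 10.2 CPM (log2 fold change -1.31 ± 0.14, adjusted p = 1.9e-12). The promoter peak of Il27 had 28.3, 19.2 and 21.1 CPM, between the unstimulated and the LPS libraries and apart from both (log2 fold change -0.83 ± 0.14, adjusted p = 4.6e-06). Peaks 4, 5, 16 and 17 also fell, by 1.10, 0.95, 0.57 and 0.91 on the log2 scale. The call at peak 16 was lost without replicate 2 (-0.57, adjusted p = 0.11). Peak 12, a low peak at a mean of 22.1 normalised counts, fell as well (log2 fold change -0.96 ± 0.31, adjusted p = 0.049), a call that was lost without replicate 2 (-0.56, adjusted p = 0.59), without replicate 3 (-1.04, adjusted p = 0.18) and in DESeq2 (-0.96, adjusted p = 0.062).
Other Il27 peaks that LPS had opened did not pass the test. Peak 13, upstream of the promoter, had 24.1, 13.1 and 14.6 CPM with LPS + (+)-JQ1, a log2 fold change of -0.24 ± 0.15, adjusted p = 0.45, and without replicate 1, its highest library, it was called (-0.53, adjusted p = 0.024). Peak 6 (chr7:133727629-133728885), where the start sites of Cln3 and Apobr lie, had 48.1, 45.95 and 39.6 CPM against 42.9, 42.8 and 37.9 CPM with LPS (log2 fold change 0.11 ± 0.13, adjusted p = 0.74).

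At Il23a, the falls lay outside the promoter peak. Those in peaks 2, 3 and 4 lay over exons of Stat2, so they need not belong to Il23a. Peak 5 had 17.1, 15.6 and 16.5 CPM with LPS + (+)-JQ1, 3 values close together that lie between those of unstimulated cells and those of LPS (log2 fold change -0.93 ± 0.13, adjusted p = 9.9e-08). Peak 3 over Stat2 went from 17.1, 16.8 and 15.8 to 9.36, 9.55 and 11.1 CPM (log2 fold change -0.72 ± 0.15, adjusted p = 0.00032). Peaks 2, 4 and 8 fell by 0.62, 0.68 and 0.82 on the log2 scale. Peak 6, over exons of Il23a, had 4.07, 4.58 and 4.03 CPM (log2 fold change -0.72 ± 0.21, adjusted p = 0.018), a call that was lost without replicate 1 (-0.63, adjusted p = 0.12) and without replicate 3 (-0.64, adjusted p = 0.18). The promoter peak itself had 25.6, 29.1 and 24.7 CPM, a range that overlaps that of LPS, and a log2 fold change of -0.04 ± 0.14, adjusted p = 0.93.

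At Il12a, the promoter peak had 26.7, 14.8 and 15.98 CPM with LPS + (+)-JQ1. Replicate 1 stood within the LPS range of 26.3 to 31.1 CPM, while replicates 2 and 3 were well below it, so the groups overlapped. The log2 fold change was -0.60 ± 0.14, adjusted p = 0.0027, and the call was lost without replicate 2 (-0.45, adjusted p = 0.29) and without replicate 3 (-0.54, adjusted p = 0.051). Peak 10, a broad and shallow region 9696 bases after the start site that was singled out after its values were seen, had 5.05, 5.69 and 3.34 CPM with LPS and 2.38, 2.24 and 2.25 CPM with LPS + (+)-JQ1 (log2 fold change -1.05 ± 0.24, adjusted p = 0.0013). Peak 8, an intronic peak at a mean of 12.0 normalised counts, was the third to fall, by 1.97 on the log2 scale. It had 0.643, 1.75 and 1.49 CPM with LPS and 0.461, 0.327 and 0.233 CPM with LPS + (+)-JQ1. Replicate 1 with LPS lay within the range of 0.603 to 0.934 CPM of unstimulated cells. Peak 13, with the AP-1 match, had 29.1, 25.4 and 24.5 CPM and did not pass the test (log2 fold change -0.25 ± 0.13, adjusted p = 0.31).
At Ebi3, the promoter peak had 32.2, 23.8 and 22.96 CPM with LPS + (+)-JQ1 against 28.2, 22.7 and 21.7 CPM with LPS, a log2 fold change of 0.11 ± 0.14, adjusted p = 0.76. Peak 12 had 13.3, 8.73 and 7.83 CPM, with 1 of 3 libraries above the LPS range and 2 below it (log2 fold change -0.33 ± 0.16, adjusted p = 0.25). Log2 fold changes of the 16 Ebi3 peaks were between -0.70 and 0.51.

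**Figure D2:**
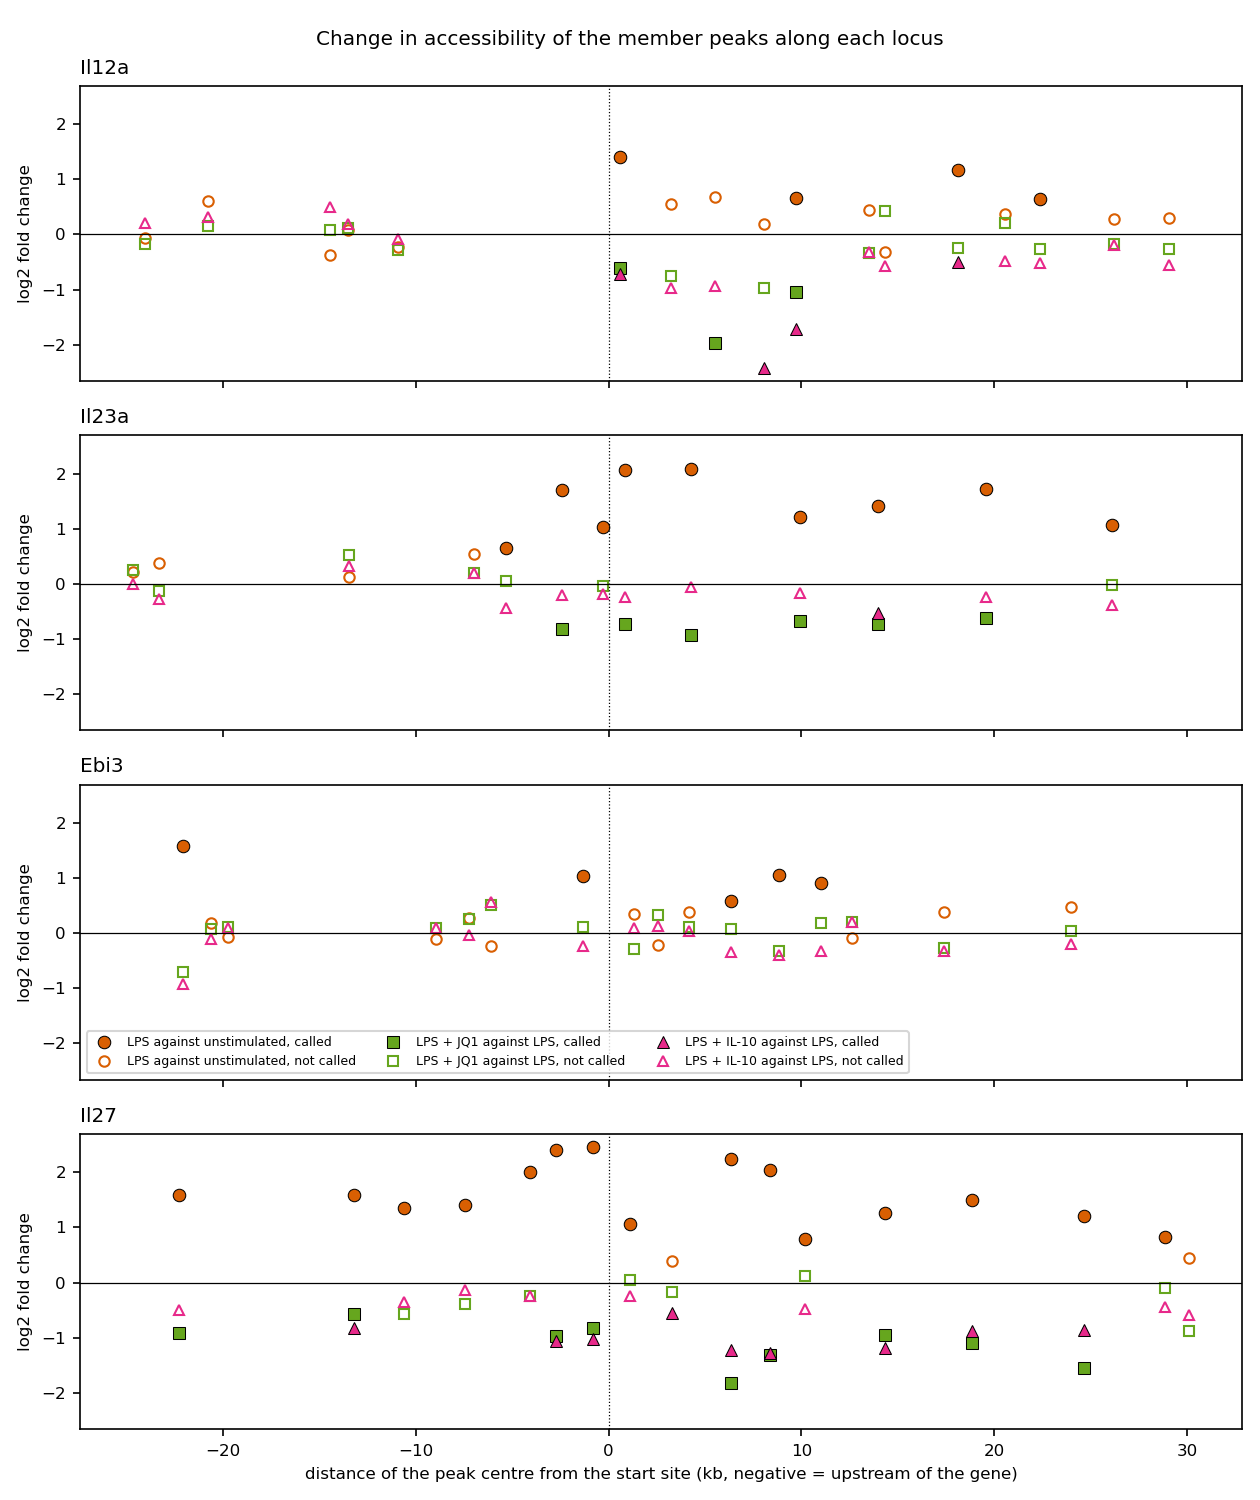
Log2 fold change of each of the 63 peaks (y axis) against the distance of its centre from the start site in kb (x axis, negative upstream), for LPS against unstimulated, LPS + (+)-JQ1 against LPS and LPS + IL-10 against LPS, with called peaks filled. Filled circles above 0 span the whole Il27 panel, where 15 of 17 peaks rose with LPS, while none of the plotted Ebi3 peaks has a filled square or triangle.

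With IL-10 before LPS, the falls were centred on Il27. LPS + IL-10 against LPS gave 0 peaks that rose and 14 of 63 that fell, where 4.26% of all tested peaks rose and 4.51% fell. Falls were found in 9 of 17 peaks at Il27, 4 of 17 at Il12a, 1 of 13 at Il23a and 0 of 16 at Ebi3. Without replicate 2, 9 of the 63 peaks fell. The median log2 fold change of the 63 was -0.32, against -0.01 over all peaks.

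The Il27 promoter peak had 21.1, 16.7 and 21.2 CPM with LPS + IL-10, below all LPS libraries and above all unstimulated ones (log2 fold change -1.03 ± 0.14, adjusted p = 7.1e-09). Peak 7 had the largest fall at the locus among peaks with at least 50 mean normalised counts, to 11.5, 9.85 and 12.2 CPM (log2 fold change -1.27 ± 0.14, adjusted p = 2.8e-12), and peak 8 fell to 8.43, 5.79 and 7.63 CPM (log2 fold change -1.22 ± 0.16, adjusted p = 6e-09). Peak 5 (chr7:133721950-133726287), over Cln3, fell from 22.6, 19.2 and 22.04 to 9.04, 8.75 and 10.2 CPM (log2 fold change -1.19 ± 0.14, adjusted p = 2.8e-10), where unstimulated cells had 9.03, 8.79 and 8.77 CPM. Peaks 3, 4, 9 and 16 fell by 0.87, 0.89, 0.56 and 0.83 on the log2 scale. Peak 12 fell by 1.06, a call lost without replicate 2 (-0.77, adjusted p = 0.29) and without replicate 3 (-1.04, adjusted p = 0.11). Peaks 2, 6 and 17 had an FDR under 0.05 but log2 fold changes of -0.45, -0.48 and -0.49, short of the limit on the fold.

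At Il12a, the promoter peak had 19.8, 14.2 and 18.1 CPM, with all 3 libraries below those of LPS (log2 fold change -0.72 ± 0.14, adjusted p = 9.9e-05), and the call was lost without replicate 2 (-0.60, adjusted p = 0.056). Peak 13 had 26.3, 20.3 and 19.4 CPM (log2 fold change -0.51 ± 0.13, adjusted p = 0.0054). It lost its call without replicate 2 (-0.45, adjusted p = 0.19), without replicate 3 (-0.49, adjusted p = 0.03), with total counts and with loess offsets. Peak 10 had 1.37, 1.56 and 1.38 CPM, a log2 fold change of -1.72 ± 0.25, adjusted p = 8.5e-08, and the neighbouring low peak 9 fell by 2.42 on the log2 scale at a mean of 11.7 normalised counts.
At Il23a, peak 3 fell to 11.4, 9.79 and 13.1 CPM (log2 fold change -0.53 ± 0.15, adjusted p = 0.0083), and that call was lost without replicate 1 (-0.50, adjusted p = 0.047), without replicate 2 (-0.43, adjusted p = 0.22) and with total counts. Peak 5, the Il23a peak with the largest fall under (+)-JQ1, had 35.2, 25.96 and 28.7 CPM with LPS + IL-10, a range that encloses the LPS libraries (log2 fold change -0.06 ± 0.13, adjusted p = 0.84). The promoter peaks of Il23a and Ebi3 had 25.7, 24.04 and 21.8 CPM and 21.8, 19.6 and 19.98 CPM, with log2 fold changes of -0.19 ± 0.14, adjusted p = 0.44 and -0.24 ± 0.14, adjusted p = 0.31.

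**Figure D3:**
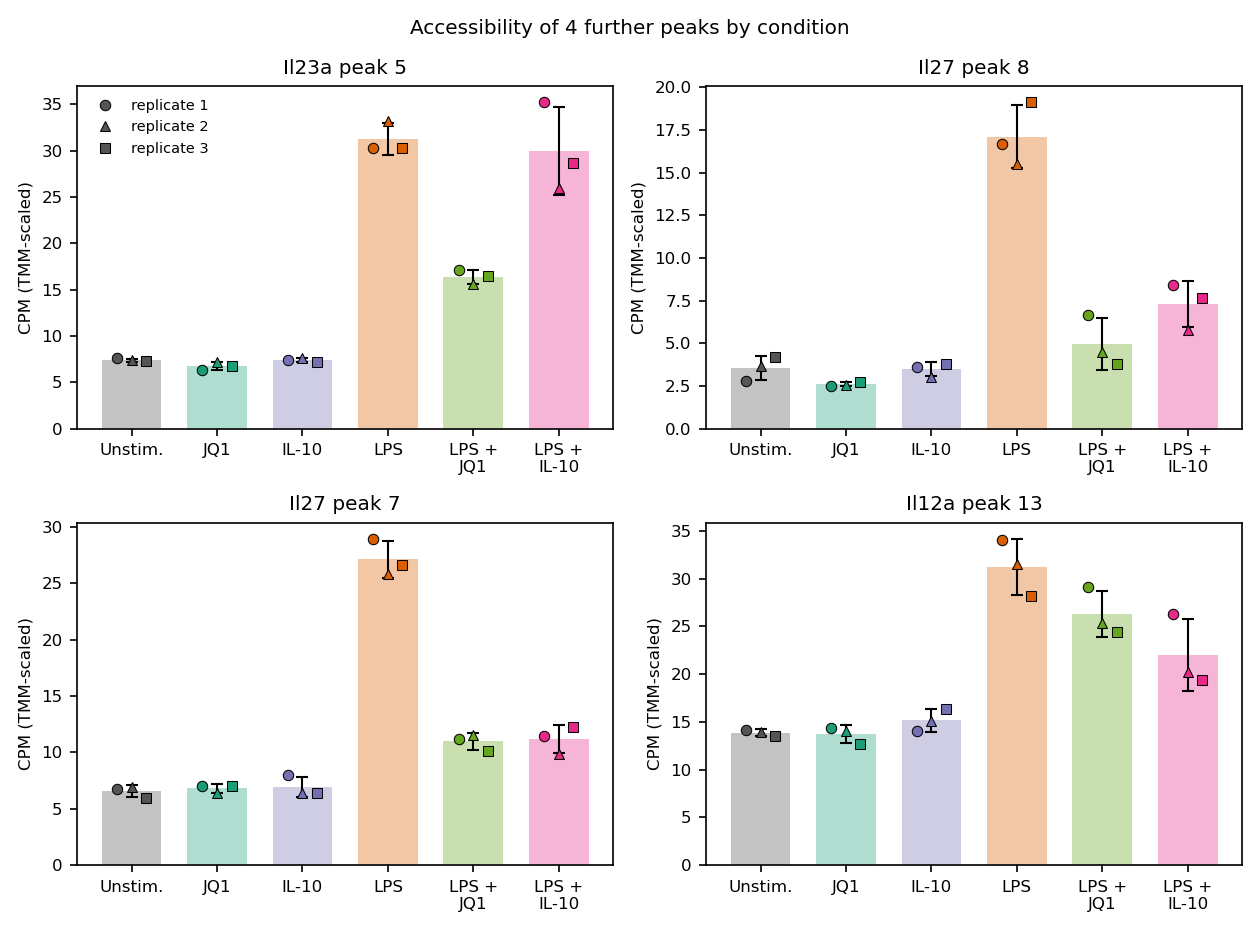
Accessibility of Il23a peak 5, Il27 peaks 8 and 7 and Il12a peak 13 in TMM-scaled CPM (y axis, from 0) in 6 conditions (x axis), with points for the 3 libraries, bars for the mean and whiskers for the SD. At Il23a peak 5 the LPS + (+)-JQ1 libraries sit in the range of 15.6 to 17.1 CPM and the LPS + IL-10 libraries in that of 25.96 to 35.2 CPM, while at Il27 peak 7 both groups lie in the range of 9.85 to 12.2 CPM.

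Both treatments were compared directly under LPS. LPS + (+)-JQ1 against LPS + IL-10 gave 2 of 63 peaks higher with (+)-JQ1 and 5 lower, where 3.43% of all tested peaks were higher and 4.68% lower. Without replicate 2 the counts were 0 and 2, and without replicate 3 the lower count was 2. The clearest difference was at Il23a peak 5, where the groups did not overlap (log2 fold change -0.87 ± 0.13, adjusted p = 4.4e-07), a call kept under all 14 alternatives. Il23a peaks 4 and 8 were lower with (+)-JQ1 as well, by 0.51 and 0.62 on the log2 scale. At Il27, peak 3 was lower with (+)-JQ1 (-0.68 ± 0.15, adjusted p = 0.00045). So was peak 8 (-0.60 ± 0.18, adjusted p = 0.018), whose call was lost without replicate 2 (-0.68, adjusted p = 0.084) and without replicate 3 (-0.38, adjusted p = 0.39). Peak 6, over the Cln3 and Apobr start sites, was higher with (+)-JQ1 (0.59 ± 0.13, adjusted p = 0.00092), a call lost without replicate 2 (0.60, adjusted p = 0.074) and with loess offsets (0.36, adjusted p = 0.0014). The other peak higher with (+)-JQ1 was Ebi3 peak 13, by a log2 fold change of 0.51. At the 4 promoter peaks the differences did not pass the test: 0.12 ± 0.15 at Il12a, 0.15 ± 0.14 at Il23a, 0.35 ± 0.14 at Ebi3 and 0.20 ± 0.14 at Il27 on the log2 scale (SE), with adjusted p of 0.69, 0.58, 0.1 and 0.43. These values do not show that both treatments act alike there.

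Without LPS, (+)-JQ1 raised 10 of 63 peaks and lowered 5, and IL-10 raised 4 and lowered 4. Over all tested peaks, (+)-JQ1 raised 7.85% and lowered 3.15%, and IL-10 raised 5.16% and lowered 3.5%. Most of the rises were in peaks of the authors' promoter class, which rose widely: 22.9% of all promoter peaks rose with (+)-JQ1, against 8 of 25 here, and 8.72% with IL-10, against 4 of 25. These counts moved with the scaling. With total counts 4 peaks rose and 12 fell with (+)-JQ1, and with loess offsets 0 rose and 8 fell. IL-10 raised 0 peaks under either scaling. Without replicate 2, (+)-JQ1 raised 3 and lowered 1, and IL-10 raised 0 and lowered 1. Without replicate 1, (+)-JQ1 lowered 2 and IL-10 lowered 0, and without replicate 3 IL-10 lowered 2.

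The Il23a promoter peak had 22.3, 25.8 and 24.4 CPM with (+)-JQ1 alone, above all unstimulated libraries (log2 fold change 0.86 ± 0.15, adjusted p = 4.3e-06). With IL-10 alone it had 19.96, 22.8 and 20.6 CPM (log2 fold change 0.67 ± 0.14, adjusted p = 0.00097). With loess offsets the estimates were 0.41, adjusted p = 0.0053 and 0.33, adjusted p = 0.045, below the limit on the fold. With total counts the first kept its call and the second did not (0.47, adjusted p = 0.0045), and without replicate 2 the second was lost (0.59, adjusted p = 0.12). The Il12a promoter peak went the other way, to 8.17, 7.49 and 6.85 CPM with (+)-JQ1, below all unstimulated libraries (log2 fold change -0.53 ± 0.16, adjusted p = 0.017). That call was lost without replicate 2 (-0.57, adjusted p = 0.14), without replicate 3 (-0.46, adjusted p = 0.1) and in DESeq2 (-0.50, adjusted p = 0.058). With IL-10 alone it had 8.41, 8.85 and 7.799 CPM (log2 fold change -0.38 ± 0.16, adjusted p = 0.11), called with total counts (-0.59, adjusted p = 0.0043) and with loess offsets (-0.67, adjusted p = 0.0014). The Il27 promoter peak had 7.45, 6.58 and 9.096 CPM with (+)-JQ1 and 9.24, 8.12 and 8.83 CPM with IL-10, overlapping the unstimulated range of 6.16 to 8.27 CPM (log2 fold changes 0.08 ± 0.16, adjusted p = 0.83 and 0.25 ± 0.16, adjusted p = 0.34). The Ebi3 promoter peak had 16.3, 14.6 and 14.6 CPM and 13.6, 11.7 and 14.7 CPM (log2 fold changes 0.36 ± 0.15, adjusted p = 0.11 and 0.17 ± 0.15, adjusted p = 0.51). The first of these was called without replicate 3 (0.58, adjusted p = 0.012).
Il12a peak 10 had 3.75, 2.86 and 2.36 CPM in unstimulated cells, 2.03, 2.03 and 1.31 CPM with (+)-JQ1 and 1.23, 1.604 and 1.503 CPM with IL-10 (log2 fold changes -0.74 ± 0.26, adjusted p = 0.045 and -1.03 ± 0.26, adjusted p = 0.0045). It was lower with each treatment both with and without LPS, and the differences between those changes did not pass the test (-0.31 ± 0.35, adjusted p = 0.74 for (+)-JQ1 and -0.68 ± 0.36, adjusted p = 0.28 for IL-10).

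Whether a treatment acted differently in the presence of LPS was tested as an interaction, the log2 fold change of the treatment with LPS minus that without it. With (+)-JQ1, 16 of 63 peaks had a negative interaction and 0 a positive one, where 3.19% of all tested peaks were negative and 0.649% positive. With IL-10, 18 of 63 were negative and 0 positive, where 5.9% of all were negative and 2.01% positive. Of the 25 peaks classed as promoter, 12 were negative with each treatment, and 11.2% and 16.9% of all promoter peaks were. By locus, 10 of 17 peaks at Il27, 5 of 13 at Il23a, 1 of 16 at Ebi3 and 0 of 17 at Il12a were negative with (+)-JQ1, and 12, 3, 1 and 2 with IL-10.
At the Il27 promoter, where neither treatment alone moved the peak past the threshold, the interactions were -0.91 ± 0.21, adjusted p = 0.0084 for (+)-JQ1 and -1.28 ± 0.21, adjusted p = 1.4e-05 for IL-10. The first was lost without replicate 2 (-0.95, adjusted p = 0.24) and with loess offsets (-0.60, adjusted p = 0.07). Il27 peak 7 had interactions of -1.37 ± 0.21, adjusted p = 2.1e-05 and -1.35 ± 0.21, adjusted p = 3.6e-06, both called under all 14 alternatives. At the Il23a promoter, whose interactions were -0.89 ± 0.20, adjusted p = 0.0056 and -0.85 ± 0.20, adjusted p = 0.0023, the changes were 0.86 and 0.67 without LPS and -0.04 and -0.19 with it. The first was lost without replicate 1 (-0.68, adjusted p = 0.13) and without replicate 2 (-0.98, adjusted p = 0.21), and the second without replicate 2 (-0.86, adjusted p = 0.11) and with loess offsets (-0.45, adjusted p = 0.041). At the Il12a promoter, interactions were -0.07 ± 0.22, adjusted p = 0.92 and -0.35 ± 0.21, adjusted p = 0.36.
The number of interactions depended on replicate 2. Without it, 2 member peaks were called with (+)-JQ1 and 6 with IL-10, while over all peaks the negative calls went from 6202 to 87 and from 11454 to 1135. Without replicate 1, 8 were called with (+)-JQ1. With loess offsets 6 and 9 were called, and with total counts 9 with (+)-JQ1.

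**Figure D4:**
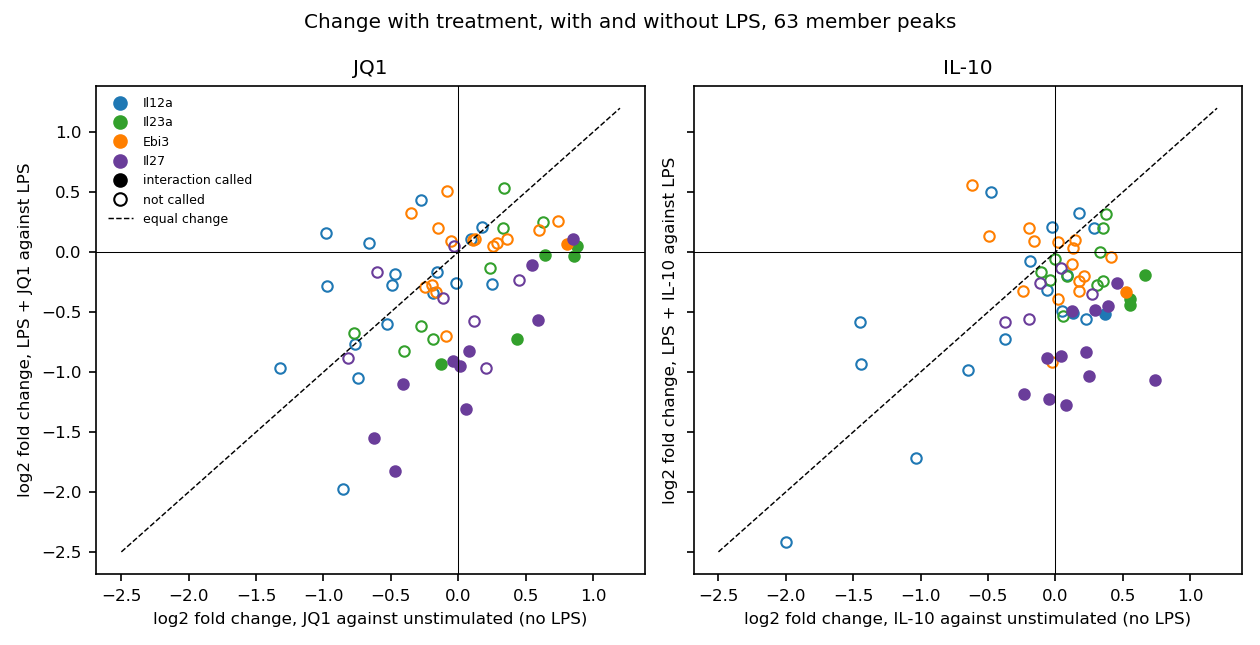
Log2 fold change of each of the 63 peaks with (+)-JQ1 (left) or IL-10 (right) in cells with LPS (y axis) against that in cells without LPS (x axis), coloured by locus and filled where the interaction was called, with a dashed line of equal change. All 16 and 18 filled points lie below the line, and most belong to Il27.

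Summed over all its peaks, each locus gave one level per condition. Except at Il12a, the sums take in promoters of neighbouring genes, so a level need not belong to the gene that names the locus. At Il23a, the promoter peaks of Pan2 and Stat2 had means over all libraries of 54.8 and 51.8 CPM, against 22.7 CPM at Il23a. At Ebi3, the Ccdc94 promoter had 50.7 CPM, against 18.6 CPM at Ebi3. At Il27, peak 6 over the Cln3 and Apobr start sites had 35.2 CPM, against 17.8 CPM at Il27. The peaks covered 21180 bases at Il12a, 36566 at Il23a, 29403 at Ebi3 and 54330 at Il27, so sums are compared within a locus only, and as a description with no test. At Il27, the sum was 369.6 ± 17.8 CPM with LPS (SD, n = 3), 238.9 ± 35.1 with LPS + (+)-JQ1, 228.5 ± 17.9 with LPS + IL-10, 160.1 ± 4.98 with (+)-JQ1, 152.8 ± 6.301 with IL-10 and 138.1 ± 3.89 in unstimulated cells. The ranges of LPS + (+)-JQ1 and LPS + IL-10 overlapped, as did those of both treatments alone, and all other neighbours in that order were apart. At Il12a, LPS gave 92.6 ± 6.33 CPM, LPS + (+)-JQ1 72.3 ± 11.7, LPS + IL-10 63.9 ± 7.402, unstimulated cells 50.6 ± 1.29, IL-10 47.9 ± 1.29 and (+)-JQ1 42.9 ± 1.36. There the ranges of both LPS + treatment groups overlapped, and so did those of unstimulated and IL-10-treated cells. At Il23a, the order was LPS at 287.5 ± 11.3 CPM, LPS + (+)-JQ1 at 247.7 ± 15.3, LPS + IL-10 at 237.7 ± 20.6, (+)-JQ1 at 202.8 ± 20.2, IL-10 at 183.8 ± 2.86 and unstimulated at 137.6 ± 16.1, with overlap between LPS + (+)-JQ1 and LPS + IL-10 and between both treatments alone. At Ebi3, the sums ran from 187.2 ± 15.7 CPM with LPS + (+)-JQ1 to 122.4 ± 13.8 CPM in unstimulated cells, and every neighbour in the order overlapped the next. By the difference of mean log2 sums, LPS was 2.68 times unstimulated cells at Il27, 2.10 times at Il23a, 1.83 times at Il12a and 1.48 times at Ebi3.

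**Figure D5:**
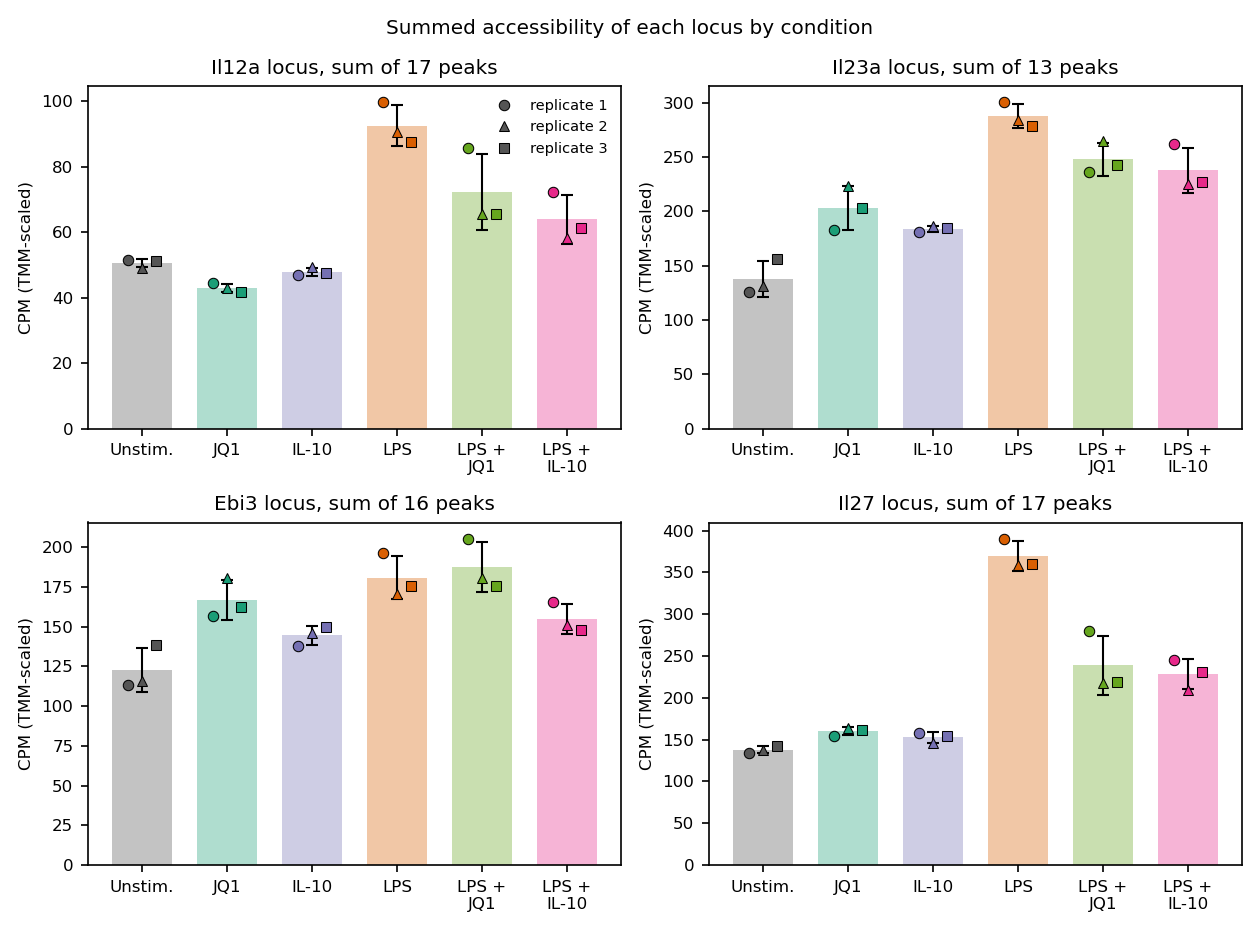
Sum of TMM-scaled CPM over all peaks of each locus (y axis, from 0) in 6 conditions (x axis), with points for the 3 libraries, bars for the mean and whiskers for the SD. At Il27 the LPS libraries lie between 358.7 and 390.1 CPM and the LPS libraries with either treatment between 209.7 and 279.4 CPM, while at Ebi3 neighbouring conditions overlap.

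The receptors and some of the signalling proteins downstream of these cytokines were read from the same fit. The receptor genes were Il12rb1, Il12rb2, Il23r, Il27ra and Il6st (the gp130 chain that IL-27 uses), and the others were the kinases Jak1, Jak2 and Tyk2 and the transcription factors Stat3 and Stat4. Of the 88 peaks within 25 kb of the receptor genes, 5 rose and 16 fell with LPS, beside 11.7% and 10.2% of all tested peaks, and 9 of the falls were at Il6st. At the kinases, 21 of 33 peaks rose and 0 fell at Jak2, 10 of 25 rose and 0 fell at Tyk2, and 3 of 47 rose and 4 fell at Jak1, where both shares were below those of all peaks. At Stat3, 16 of 44 peaks rose and 0 fell, and at Stat4 10 of 20 rose and 1 fell. Under LPS, (+)-JQ1 lowered 15 of 33 peaks at Jak2 and 0 of 25 at Tyk2, beside 3.49% of all peaks, and IL-10 lowered 14 and 7, beside 4.51%. At the receptors, (+)-JQ1 raised 4 and lowered 2 of the 88 peaks, and IL-10 raised 1 and lowered 1, beside the shares of all peaks raised and lowered (1.74% and 3.49% with (+)-JQ1, 4.26% and 4.51% with IL-10). At Stat3, (+)-JQ1 alone and IL-10 alone each raised 4 of 44 peaks and lowered 0, where 7.85% and 5.16% of all peaks rose.

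Over the 18 libraries, the promoter peaks of other genes whose log2 CPM followed that of the Il27 promoter most closely were those of Traf1 (Pearson's r = 0.988), Serpina3f (0.982) and Cd69 (0.978), of 15113 promoter peaks compared. For Il12a these were Zfp385a (0.980), Ccnd2 (0.974) and Foxs1 (0.968), for Il23a Psma5 (0.961), Gbp7 (0.960) and Lgals9 (0.957), and for Ebi3 Alox12 (0.957) and Procr (0.957). These peaks are the best of many, and the 18 values fall into 6 conditions, so the correlations describe likeness only.

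In the middle 300 bases of each peak, motif matches were sparse. AP-1 letters were found in 5 of the 63 member peaks, 2 of 25 classed as promoter (5.55% of all promoter peaks) and 3 of 38 distal (9.25% of all distal peaks). The interferon response letters were in 4 of 25 and 2 of 38 (8.57% and 10.5% of all), and the kappaB letters in 1 of 25 and 1 of 38 (1.16% and 1.27%). A STAT match was found in 0 of 63, where 1.06% of promoter and 0.937% of distal peaks held one. All interferon response and kappaB matches in the middle 300 bases of member peaks that LPS opened are shown. Each has 10 bases on each side, on the plus strand. Matches elsewhere in a peak, such as that before the Il27 start site, are not listed.
Il27 peak 5, interferon response on the minus strand, chr7:133724107-133724115: cactctgaccTTCAGTTTCctcatccaaa
Il27 peak 6, interferon response on the minus strand, chr7:133728266-133728274: cactttttttTTCCCTTTCccctttctgg
Il27 peak 7, interferon response, chr7:133730014-133730022: cctccagggaGAAAAGGAActcctgggcc
Il27 peak 12, interferon response, chr7:133741177-133741185: taagaggtgaGAAATGGAAactaggaagg
Il23a peak 9, kappaB, chr10:127740438-127740446: tagggaaactGGAATTTCCcgcggagctg
Ebi3 peak 1, kappaB, chr17:56069890-56069898: ccctctgaagGGACTTTCCaaatgagtgg
Il27 peaks 5, 7 and 12 fell with (+)-JQ1 before LPS and with IL-10 before LPS, while Il27 peak 6, Il23a peak 9 and Ebi3 peak 1 were called with neither. Of the 9 Il27 peaks that fell with (+)-JQ1 under LPS, 3 held a match to any of the 6 motifs in their middle 300 bases, as did 3 of the 9 that fell with IL-10. That window is only a part of each peak, as these peaks were 703 to 14617 bases wide. Over their whole width, Il27 peaks 3, 4, 8, 9, 11, 16 and 17 held matches too. No share of all peaks was taken for either count, so both are a description.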

How the data were processed

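ATAC-seq counts of 18 libraries, 3 in each of 6 groups, were analysed. The authors deposited raw read counts for a union set of 194284 peaks on mm9, which they classed as promoter (from 1000 bases before to 100 after a start site) or distal. Bowtie2, MACS2 and ChIPseeker are named in the submitters' processing notes. The counting tool and any shift of transposase cut sites are not given in the sources used here. 6 columns of the table matched no sample and were not used. Peak coordinates are as the file gives them.

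Groups were taken from the labels. All 18 libraries were fitted together with edgeR 4.0.16 (R 4.3.3; quasi-likelihood test, TMM, low counts filtered by expression over the 6 groups, no block), which kept 194230 peaks, all 63 members included. Adjustment was by Benjamini-Hochberg over all tested peaks. The total count per library, 12020526 to 25908198, sets the precision, and CPM values are TMM-scaled. Alternatives were DESeq2 1.42.0, other scalings and filters, a lane covariate, a replicate block and each replicate number left out. Lane was partly tied to LPS, since replicate 2 changed lane with it. The fit was tested on simulated data.

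Peaks named by rule were those at the start site of a member and those called in an interaction. The rule also took the called peaks with the largest rise and fall per locus and comparison, with at least 50 mean normalised counts. Values by library are given for only some of the peaks called in an interaction. Others named were chosen after their values were seen. The members, lists and rules were chosen with earlier results of these data known. Motifs were searched by exact letters. Some items of the pathway, marker and likeness lists are not reported here.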

Additional observations from a re-analysis of the deposited data

Results flagged for a closer look

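In the peaks below, the change that a treatment made differed with and without LPS, by a test of the interaction itself in the fit over all tested peaks (edgeR, adjusted p under the threshold of 0.05 and a size over 0.5). Values are the log2 fold change of the treatment with LPS minus that without LPS. With (+)-JQ1, Il27 peaks 2, 3, 4, 5, 6, 7, 8, 11, 16 and 17 had interactions of -0.65, -0.92, -0.69, -0.96, -0.74, -1.37, -1.35, -0.91, -1.16 and -0.87. With (+)-JQ1, Il23a peaks 1, 5, 6, 7 and 9 had interactions of -0.66, -0.81, -1.16, -0.89 and -0.83. With (+)-JQ1, Ebi3 peak 11 had an interaction of -0.74. With IL-10, Il27 peaks 2, 3, 4, 5, 6, 7, 8, 11, 12, 13, 16 and 17 had interactions of -0.84, -0.91, -0.82, -0.96, -0.77, -1.35, -1.18, -1.28, -1.80, -0.71, -1.06 and -0.62. With IL-10, Il23a peaks 1, 7 and 9 had interactions of -0.95, -0.85 and -0.99. With IL-10, Ebi3 peak 11 had an interaction of -0.86. With IL-10, Il12a peaks 13 and 15 had interactions of -0.64 and -0.88. Every one was negative, so accessibility changed less upward, or more downward, with the treatment when LPS was present. Without replicate 2, 2 peaks were called with (+)-JQ1 and 6 with IL-10. The unstimulated libraries had TMM factors of 1.04 to 1.24, against 0.896 to 1.05 in the other libraries, and with loess offsets 6 and 9 peaks were called.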

How the results depend on the processing

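All counts here are of the 63 member peaks, in 14 alternative settings. The count of peaks that rose with LPS, 33, ranged from 30 to 33 over the fits that left out a replicate number, and that of falls with (+)-JQ1 under LPS, 18, from 12 to 19. Falls with IL-10 under LPS, 14, ranged from 9 to 13. For (+)-JQ1 alone, rises went from 10 to 4 with total counts and 0 with loess offsets (3 to 11 over replicates left out). Its falls went from 5 to 12 with total counts, 3 with DESeq2 size factors, 2 with DESeq2 or an FDR under 0.01 and 8 with loess offsets (1 to 5 over replicates). For IL-10 alone, rises went from 4 to 0 with total counts or loess offsets and 1 with at least 10 counts in every library (0 to 5). Its falls went from 4 to 1 with that filter and 2 with an FDR under 0.01 (0 to 2). For LPS + (+)-JQ1 against LPS + IL-10, higher peaks went from 2 to 1 with total counts, that filter, only the groups compared or an FDR under 0.01, to 0 with loess offsets and to 4 with no minimum fold (0 to 2), and lower peaks from 5 to 3 with an FDR under 0.01 (2 to 5). Negative interactions with (+)-JQ1 went from 16 to 9 with total counts or an FDR under 0.01 and 6 with loess offsets (2 to 14), and those with IL-10 from 18 to 9 with loess offsets (6 to 16). Positive interactions with IL-10 went from 0 to 1 with total counts and with at least 10 counts in every library. The log2 ratio of locus sums between LPS and unstimulated cells was 0.64 and 0.74 at Il12a, 0.84 and 0.71 at Il23a, 0.33 and 0.29 at Ebi3 and 1.19 and 1.15 at Il27, by total counts and then by loess offsets. In the middle 500 bases, 10 peaks held AP-1 and 3 held PU.1 letters. Il23a peak 1 with (+)-JQ1 alone changed sign with loess offsets, from 0.64 to -0.064 (adjusted p = 0.73). The cause of these moves was not tested. Replicate numbers are shared between groups, but deviations from group means had a mean correlation of 0.0057 over 45 same-numbered pairs (-0.082 to 0.064, 0 over 0.1) and -0.0029 over 90 others (up to 0.075), so not every library was most like its own number. With the replicate block, 33 peaks rose with LPS, 18 and 14 fell under LPS with (+)-JQ1 and IL-10, and none of the 192 results for named peaks changed its call. Of these 192, the call was kept by 165 under total counts, by 152 under loess offsets, and by 171, 146 and 174 without replicates 1, 2 and 3. With 3 libraries a group and peaks down to about 12 mean normalised counts, small changes in low peaks were not detectable.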
